A study of Rattus norvegicus with 42 samples.

Results

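Homeobox genes encode transcription factors with a shared DNA-binding homeodomain, and this account follows 68 of them through the culture of rat kidney mesenchyme. The members were the genes whose symbol on the array's annotation belongs to the Hox, Pbx, Meis, Pknox, Irx, Six-family, Lhx, Msx, Dlx, Emx, Prrx, Pitx, Alx, Nkx, Cux, Satb or Zfhx series, out of 14218 genes with a probe set of their own. Metanephric mesenchyme, the tissue that forms the nephrons of the kidney, was dissected from rat embryos at embryonic day 13.5 and freed of the ureteric bud. In all, 42 Affymetrix arrays covered 21 groups, each with 2 biological replicates. They comprise fresh tissue, tissue cultured without an inducer for 1 or 2 days, and tissue cultured for 1, 2, 3, 4, 5 or 7 days with LIF (leukemia inhibitory factor, a cytokine), NGAL (a secreted lipocalin) or the ANX fraction, whose content the labels do not give. All cultures, uninduced ones included, grew on collagen-coated filters in DMEM/F12 supplemented with an FGF, a TGF, T3, prostaglandin, dexamethasone, insulin, selenium and transferrin. The uninduced cultures end at day 2, so later induced days have no uninduced control of the same age. Explants are bulk tissue, so fewer cells of a type and less RNA per cell cannot be told apart.

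In the embryo, Hox genes mark position along the body, and Hox genes of paralog groups 10 and 11 are required for the metanephric kidney to form. Hox proteins bind DNA with TALE homeodomain partners, which are the Pbx, Meis and Pknox proteins, and Six-family proteins act with Eya cofactors in the mesenchyme that gives rise to nephrons. Lhx1, Emx2 and the Iroquois genes (Irx) are known for roles in the forming renal epithelium, while Prrx, Msx and Alx genes are known from embryonic mesenchyme.

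Of the 68 members 49 were measured, that is, their highest group mean was above log2 5.79, the 40th percentile of all array values. The other 19 (Cux2, Dlx1, Dlx5, Hoxb13, Hoxc8, Irx1, Irx4, Lhx4, Lhx5, Lhx9, Msx2, Nkx2-2, Nkx2-3, Nkx6-1, Nkx6-2, Pitx3, Six3, Six6 and Zfhx4) lay below this signal threshold in every group, as read by the probe set with the highest mean, and were not tested at this step. Among the 49, Alx1, Emx2, Hoxd1, Hoxd3, Irx2, Irx5, Lhx1, Lhx2 and Msx1 passed only through the groups in which they were high. Their differences from other groups are therefore in part fixed by this filter. For Emx2, Hoxd1, Lhx2 and Msx1 adjusted p-values from a fit of all 14218 genes with no filter are given. Those of Alx1, Hoxd3 and Lhx1 come from the filtered fit and are to be read with this limit. Six2, Hoxc10 and Hoxc11 are not analysed here. Levels are log2 of the deposited array intensity, and changes are log2 differences from a limma model over all 42 arrays, with the model's standard error (SE). A gene was called when its Benjamini-Hochberg adjusted p over 11388 genes was under 0.05. A floored value sets group means below the threshold to it, and is given where a group lay there. Group means of the measured members spanned a median of 1.04 log2 units over the 21 groups, and those of all 11388 genes spanned 0.73. Array medians ran from 6.38 to 6.47.

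**Figure D1:**
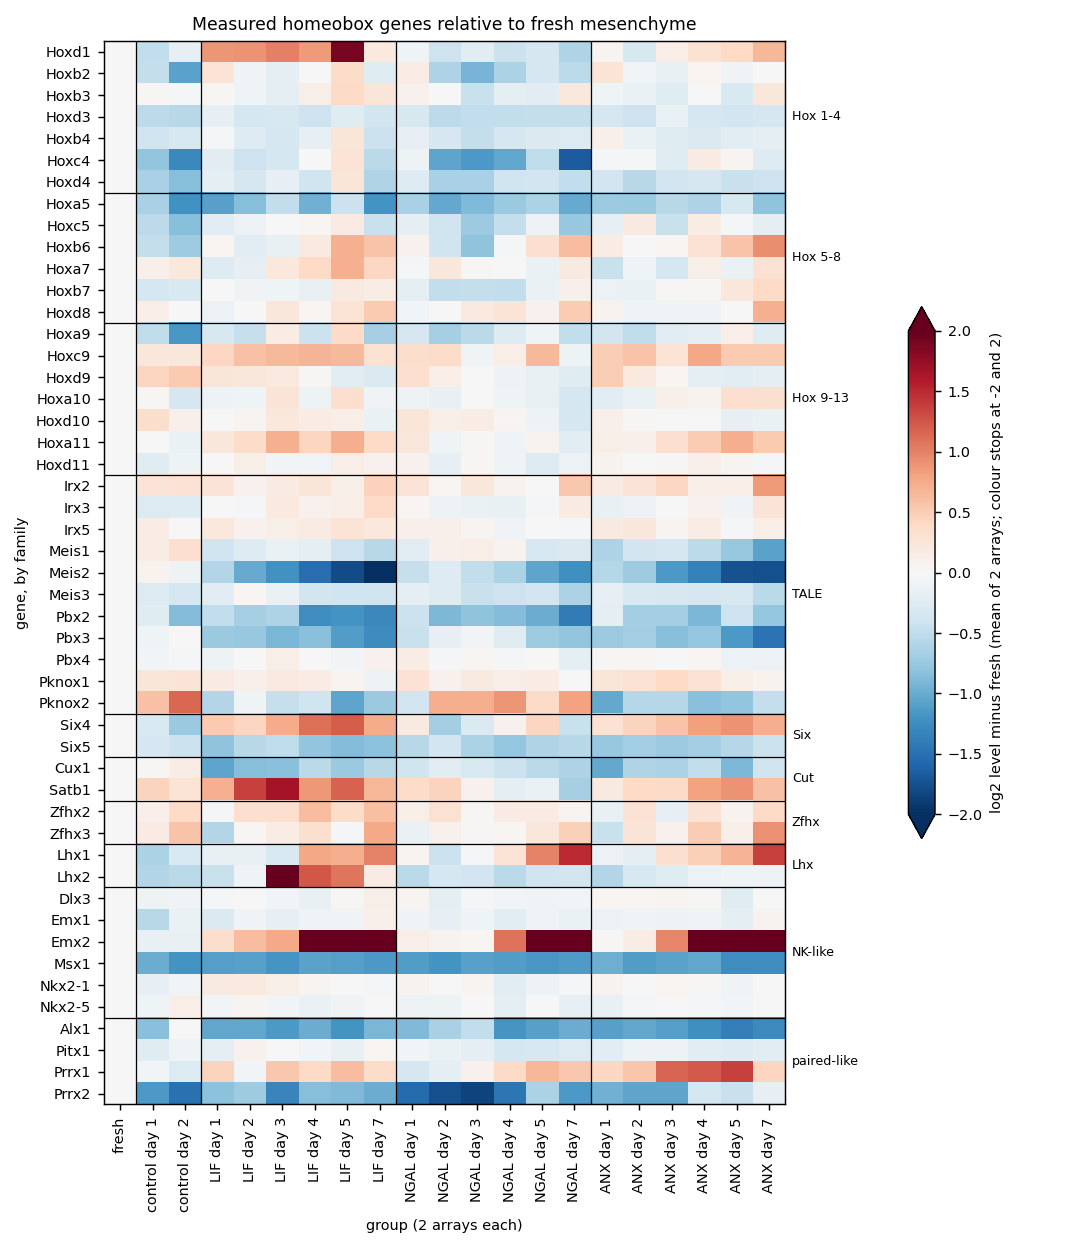
Rows are the 49 measured homeobox genes by family, columns the 21 groups, and colour the group mean (2 arrays) minus the fresh mean on the log2 scale, with colour stopping at -2 and 2. Emx2 and Lhx1 are red late under each inducer, Meis2 and Pbx3 turn blue over the days of induction, and Msx1 is blue in every cultured group.

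The largest change was in Emx2, a homeobox gene needed for the developing urogenital system, which was below the threshold in fresh and uninduced tissue and rose late under every inducer. Its fresh levels were 3.67 and 3.39, and the 4 uninduced arrays ran from 3.32 to 3.45. With LIF the day 1 levels were 3.95 and 3.81, day 4 gave 5.72 and 7.13, and day 7 gave 5.58 and 9.15. NGAL cultures read 3.70 and 3.61 on day 1, 4.98 and 6.44 on day 5, and 7.03 and 8.68 on day 7. In ANX cultures they were 3.67 and 3.43 on day 1, 6.82 and 7.70 on day 5, and 8.48 and 8.50 on day 7. Both day 7 arrays lay above both day 1 arrays for each inducer, and the LIF day 7 replicates stood far apart. From day 1 to day 7 the rise was 3.49 with LIF (SE 0.81, floored 1.58), 4.20 with NGAL (SE 0.81, floored 2.07) and 4.94 with ANX (SE 0.81, floored 2.70), with limma adjusted p = 0.00868, 0.0013 and 0.000327 when no gene was filtered. In the filtered fit the LIF call ended without LIF day 1 replicate 2 or LIF day 7 replicate 2 (highest adjusted p 0.169), while the NGAL and ANX calls held with any 1 of their 4 arrays omitted (highest 0.0176 and 0.00572). The 6 induced day 7 arrays together were 4.38 above fresh tissue (SE 0.66, floored 2.12, adjusted p = 1.73e-05 with no filter).

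Lhx1, a LIM homeobox gene that marks the renal vesicle, was also higher late in culture. Its levels in fresh tissue were 5.46 and 6.05. Group means of Lhx1 in fresh and uninduced tissue lay below the signal threshold. LIF day 1 arrays stood at 5.72 and 5.49 and day 7 arrays at 6.02 and 7.46, NGAL went from 5.86 and 5.76 to 7.07 and 7.42, and ANX from 5.80 and 5.47 to 7.25 and 7.01. Day 7 lay above day 1 without overlap in each case. The change was 1.43 with NGAL (SE 0.40, adjusted p = 0.0176) and 1.49 with ANX (SE 0.40, floored 1.34, adjusted p = 0.0143), and both were called, while with LIF it was 1.14 (SE 0.40, adjusted p = 0.068). The NGAL call was lost with any 1 of its 4 arrays omitted (highest adjusted p 0.118), and the ANX call without ANX day 1 replicate 2 or either day 7 array (highest 0.123). Against fresh tissue the induced day 7 arrays were 1.28 higher (SE 0.33, floored 1.25, adjusted p = 0.00378), and this call ended without fresh replicate 1 (adjusted p 0.115). The promoter of Lhx1 is shown because it is among the few members' windows that hold TGACAG, a Meis and Pknox core motif. It is the 250 bases before the start site in RefSeq's GRCr8 build, chr10:69901077-69901326 (minus strand), with the motif TGACAG in capitals.
Lhx1: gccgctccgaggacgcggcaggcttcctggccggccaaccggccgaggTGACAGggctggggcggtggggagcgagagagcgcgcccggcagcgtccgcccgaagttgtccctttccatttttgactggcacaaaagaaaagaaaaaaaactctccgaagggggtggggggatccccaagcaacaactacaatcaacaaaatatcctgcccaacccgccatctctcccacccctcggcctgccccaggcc
Counting both strands, TGACAG occurred in 15.77% of 33469 promoter windows of this length. It was in 6 of the 47 members' windows matched by gene number (12.77%) and in 2 of the 34 of measured members (5.88%). A match is a description of letters and not a bound site.

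The Iroquois readings depended on the probe set. For Irx3 the probe set with the highest mean, an x_at set whose probes can bind other transcripts, was nearly level, from 7.93 and 7.97 on LIF day 1 to 8.18 and 8.47 on day 7 (change 0.37, SE 0.14, adjusted p = 0.096). A dimmer Irx3 probe set stayed below the threshold (highest group mean 4.87) and changed by -0.02 with LIF, 0.01 with NGAL and -0.27 with ANX from day 1 to day 7. A further Irx3 probe set, also not an x_at set, read 4.02 and 4.31 in fresh tissue and 4.36 to 4.73 in the 4 uninduced arrays. It read 4.34 and 4.25 on LIF day 1 and 5.13 and 8.06 on LIF day 7, 4.15 and 4.49 against 6.10 and 7.61 with NGAL, and 4.22 and 3.92 against 5.82 and 7.53 with ANX. All day 7 arrays were above all day 1 arrays. In a fit with every probe set as its own row, chosen after seeing the data, it rose by 2.30 with LIF (adjusted p = 0.0193), 2.53 with NGAL (adjusted p = 0.0077) and 2.60 with ANX (adjusted p = 0.00647; SE 0.60 each). Each of these calls was lost when a day 7 replicate 2 array was left out, among others (highest adjusted p 0.377, 0.0941 and 0.15). Against fresh tissue it rose by 2.54 (SE 0.49, adjusted p = 0.000362), and this call held with any 1 of the 8 arrays omitted (highest adjusted p 0.0156). For Irx1 the probe set with the highest mean was below the threshold, and the other, whose highest group mean was 6.55, was 1.75 above fresh on day 7 (SE 0.53, adjusted p = 0.0139). It read 4.48 and 4.36 in fresh tissue. On day 7 replicate 2 read 6.97 with LIF, 7.11 with NGAL and 7.96 with ANX, while replicate 1 of LIF and ANX read 4.38 and 4.64. This Irx1 call ended without either fresh array (highest adjusted p 0.116). Irx2 was 5.19 and 5.13 in fresh tissue and reached 6.07 on LIF day 7 replicate 2 and 6.87 on ANX day 7 replicate 2, and its change against fresh was not called (0.62, SE 0.25).

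**Figure D2:**
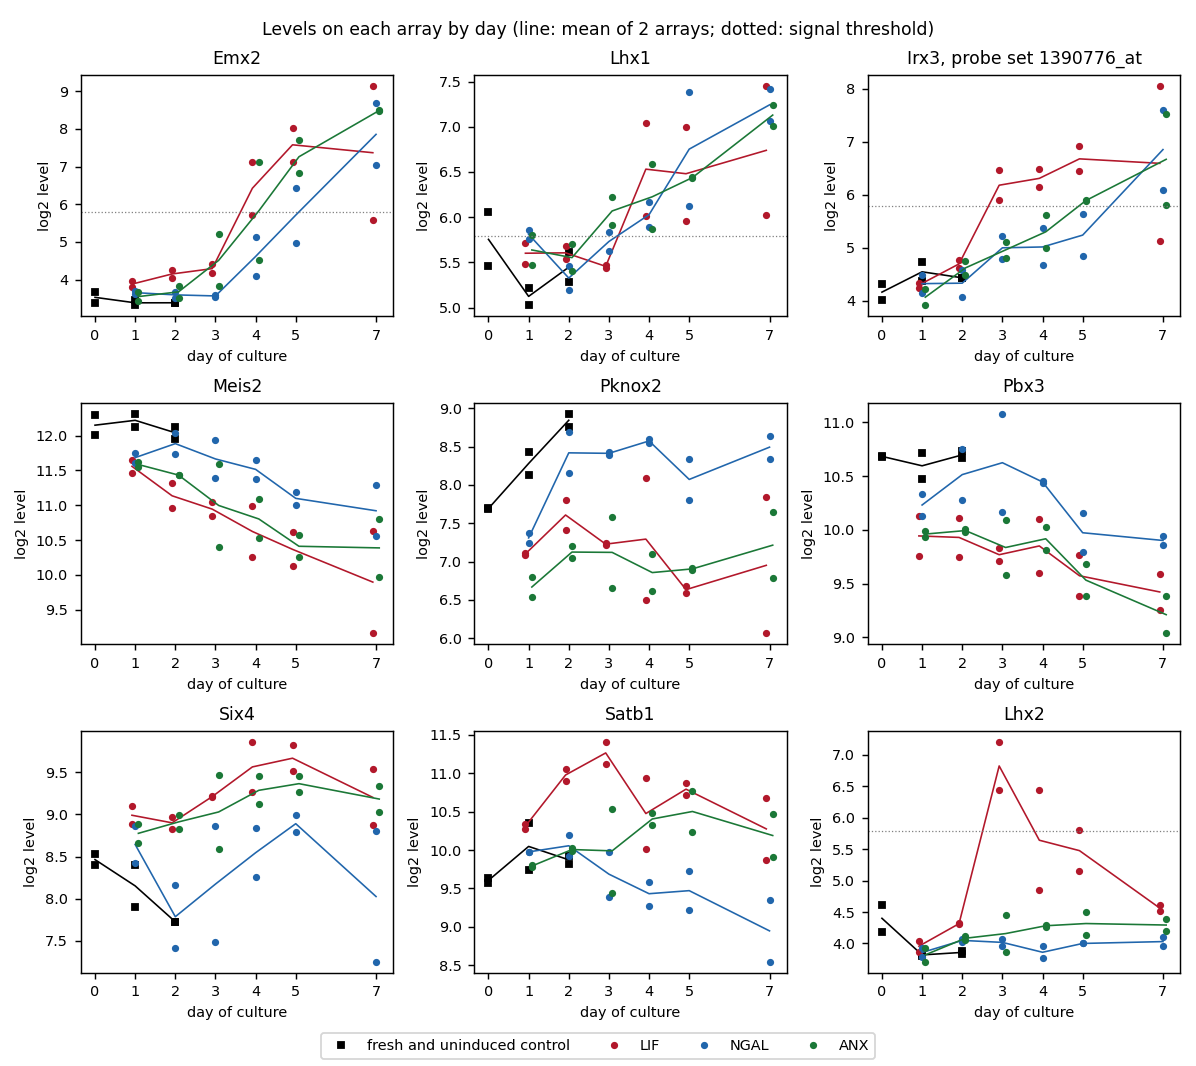
Each point is the log2 level on 1 array by day of culture, with a line through the means of 2 arrays; black squares are fresh (day 0) and uninduced tissue, and the dotted line is the signal threshold. Emx2, Lhx1 and the further Irx3 probe set are highest late in induced culture, Meis2 and Pbx3 decline, Pknox2 is lower with LIF and ANX than with NGAL after day 1, and Lhx2 peaks at 6.44 and 7.21 on LIF day 3.

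In the time from day 1 to day 7, 5 of 49 members were called with LIF (3 rose, 2 fell), 8 with NGAL (4 rose, 4 fell) and 7 with ANX (4 rose, 3 fell). Of all genes 10.9% were called with LIF (4.39% rose, 6.51% fell), 15.5% with NGAL (6.92% and 8.6%) and 13.8% with ANX (6.4% and 7.43%), which is near the members' shares. A fit on only the arrays compared, with 2 residual degrees of freedom, called 0, 2 and 2 members. With every probe set as its own row the shares over all probe sets were 8.13%, 11.9% and 11%. Among day 7 arrays the log2 3'/5' signal ratio of the dap spike-in RNA, a measure of how far labelling reached, was 1.19, 1.32 and 1.17 in replicate 1 of LIF, NGAL and ANX and 2.30, 1.97 and 2.20 in replicate 2. Emx2 rose by 3.14, 3.94 and 4.37 with this ratio as a covariate, and stayed called for each inducer. Whether the day 7 spread of the Iroquois probe sets follows this ratio was not tested. Comparing the change from day 1 to day 7 between inducers, a test added after seeing the data, called 0 of 49 members in each of the 3 pairs, beside 0.00878%, 0% and 0.0527% of all genes. At an unadjusted p under 0.05 limma's counts over all genes were 1088 for LIF against NGAL, 217 for LIF against ANX and 1603 for NGAL against ANX, with 1, 0 and 6 genes called. The other called members with NGAL were Hoxc4 (-1.57, SE 0.41, adjusted p = 0.0122), Satb1 (-1.03, SE 0.33, adjusted p = 0.038), Hoxd10 (-0.58, SE 0.14, adjusted p = 0.00741) and Prrx1 (0.87, SE 0.28, adjusted p = 0.0332), each lost in 2 or 3 of 4 omissions of an array (highest adjusted p 0.25, 0.395, 0.141 and 0.542). In the fit with every probe set as its own row, the other probe sets of 3 of these genes were not called. They changed by -0.27 for Hoxc4 (adjusted p = 0.385), -0.72 for Satb1 (adjusted p = 0.28) and 0.11 for Prrx1 (adjusted p = 0.764). With LIF, Zfhx2 rose by 0.64 (SE 0.21, adjusted p = 0.0485; lost in all 4, highest 0.167, and with the dap ratio as a covariate, 0.0556), and with ANX, Hoxb6 rose by 0.78 (SE 0.27, adjusted p = 0.0498; lost in 3 of 4, highest 0.45).

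Several TALE genes fell under induction. With LIF, 4 of 11 measured TALE members (Pbx, Meis, Pknox and Irx) fell and 0 rose against uninduced controls (days 1 and 2, 4 arrays against 4), and with ANX 3 fell and 0 rose (medians -0.10 and 0.02, against 0.03 over all genes in both). Over all members 12 of 49 were called with LIF (5 rose, 7 fell) and 13 with ANX (7 rose, 6 fell), beside 24.0% (11.4% rose, 12.6% fell) and 20.3% (11.2% rose, 9.12% fell) of all genes. NGAL gave 0 of 49 members and 0% of all genes (799 at an unadjusted p under 0.05, lowest limma adjusted p = 0.101). The 3 comparisons share the same 4 control arrays.

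Pknox2, a Meis-related TALE gene, had the largest of these differences. Control levels were 8.42 and 8.14 on day 1 and 8.93 and 8.76 on day 2. LIF arrays were at 7.12 and 7.08, then 7.41 and 7.80, and ANX arrays at 6.53 and 6.80, then 7.05 and 7.20. In turn NGAL arrays were at 7.37 and 7.24 on day 1 and at 8.15 and 8.68 on day 2. No LIF or ANX array reached the lowest control array. The decrease was -1.21 with LIF (SE 0.30, adjusted p = 0.00536) and -1.66 with ANX (SE 0.30, adjusted p = 0.00048), and both calls held with any 1 of the 8 arrays omitted. In fresh tissue Pknox2 was at 7.69 and 7.70, so uninduced day 2 was 1.15 above fresh (SE 0.42, adjusted p = 0.053), without a call. Its promoter window, chr8:44979755-44980004 (minus strand), is printed because it holds the letters TTCNNNGAA, the palindrome that STAT factors recognise. The capitals mark this match.
Pknox2: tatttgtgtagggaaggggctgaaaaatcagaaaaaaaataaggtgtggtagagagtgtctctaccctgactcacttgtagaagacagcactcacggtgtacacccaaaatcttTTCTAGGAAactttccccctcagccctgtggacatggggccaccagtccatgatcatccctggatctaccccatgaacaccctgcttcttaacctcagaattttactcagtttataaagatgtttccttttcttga
TTCNNNGAA was found in 7.67% of all windows and in 2 of 47 members' windows (4.26%), those of Pknox2 and Alx1. No binding was measured here, and whether the match bears on Pknox2 levels was not tested.

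Pbx3, which encodes a Hox cofactor, stood at 10.72 and 10.48 on control day 1 and 10.73 and 10.67 on day 2. It was 9.76 and 10.13, then 9.75 and 10.11 with LIF, and 9.93 and 9.99, then 9.98 and 10.01 with ANX, again below every control array. The changes were -0.71 (SE 0.17, adjusted p = 0.00399) and -0.67 (SE 0.17, adjusted p = 0.00709). Meis1, a Hox and Pbx cofactor, was between 11.80 and 12.06 in controls, between 11.26 and 11.66 with LIF and between 11.05 and 11.45 with ANX. It fell by 0.57 with LIF (SE 0.16, adjusted p = 0.0111; lost without control day 1 replicate 1 or LIF day 2 replicate 1, highest adjusted p 0.0752) and by 0.73 with ANX (SE 0.16, adjusted p = 0.00243). Meis2 was called lower with LIF, and not with ANX (with LIF -0.78, SE 0.27, adjusted p = 0.0363), and this call survived only 1 of 8 omissions of an array (highest adjusted p 0.135). The log2 dap ratio ran from 0.77 to 2.04 in the control arrays, from 0.88 to 2.16 in the LIF arrays of days 1 and 2 and from 0.84 to 2.35 in the ANX arrays. With it as a covariate Pknox2 changed by -1.05 with LIF and -1.46 with ANX, Pbx3 by -0.65 and -0.58, and the Meis2 call ended (adjusted p 0.0523). Of 9 measured renal stroma markers 5 fell with LIF and 4 with ANX in these comparisons (medians -1.08 and -0.70), and 0 rose. Their summed intensity was 25384 to 26023 on control day 2, 8814 to 10104 on LIF day 2 and 11877 to 12373 on ANX day 2, and their part in the falls of the TALE genes was not tested.

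Over the 6 days of induction these 4 TALE genes differed between NGAL and the other inducers. LIF minus NGAL (12 arrays each) was -1.08 for Pknox2 (SE 0.17, adjusted p = 3.42e-05), -0.71 for Meis2 (SE 0.16), -0.53 for Pbx3 (SE 0.10) and -0.24 for Meis1 (SE 0.09), each with the same sign on 6 of 6 days. The Meis1 difference was lost in 13 of 24 omissions of an array (highest adjusted p 0.0996). NGAL minus ANX was 1.23 for Pknox2 (SE 0.17, adjusted p = 1.46e-05), 0.54 for Pbx3 (SE 0.10), 0.53 for Meis1 (SE 0.09) and 0.53 for Meis2 (SE 0.16), again on 6 of 6 days, and these 4 calls held in all 24 omissions. Both comparisons use the NGAL arrays. In all, 20 of 49 members were called for LIF against NGAL (15 higher, 5 lower), 18 for NGAL against ANX (5 higher, 13 lower) and 4 for LIF against ANX (3 higher, 1 lower), against 41.7% (21.5% higher, 20.3% lower), 37.5% (15.3% and 22.2%) and 5.01% (1.63% and 3.37%) of all genes. On days 1 and 2 alone the 3 counts of members were 2, 1 and 0. Markers of renal stroma moved with these genes. Of 9 measured stromal markers 8 were lower with LIF than with NGAL and 8 were higher with NGAL than with ANX (medians -1.32 and 1.11), and their summed intensity on day 4 was 30672 to 33125 with NGAL, 7810 to 9103 with ANX and 6097 to 16952 with LIF. Their part in the TALE differences was not tested.

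By day 7, 5 of the 11 measured TALE genes had fallen below fresh tissue over the 3 inducers. Meis2 went from 12.29 and 12.01 in fresh tissue to 9.16 and 10.63 with LIF, 11.29 and 10.56 with NGAL and 9.97 and 10.80 with ANX. Every day 7 array was below both fresh arrays, with a change of -1.75 (SE 0.31, adjusted p = 0.000114) that held in all 8 omissions. Pbx3 changed by -1.17 (SE 0.20, adjusted p = 5.57e-05), Pbx2 by -1.15 (SE 0.32), Meis1 by -0.64 (SE 0.18) and Meis3 by -0.52 (SE 0.15). The Pbx2 and Meis1 calls ended without either fresh array and the Meis3 call without fresh replicate 2 (highest adjusted p 0.0737, 0.108 and 0.106). In this comparison 14 of 49 members were called (4 rose, 10 fell), beside 34.5% of all genes (15.9% and 18.6%) and 30.8% of all probe sets. From day 1 to day 7 Meis2 fell by 1.66 with LIF (SE 0.38, adjusted p = 0.00727; lost without LIF day 1 replicate 2 or day 7 replicate 1, highest 0.162) and by 1.20 with ANX (SE 0.38, adjusted p = 0.037; lost in 3 of 4 omissions, highest 0.289). Pbx3 changed by -0.75 with ANX (SE 0.24, adjusted p = 0.0377; lost in all 4, highest 0.224).

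Six4, a Six-family gene of the early kidney mesenchyme, was higher with LIF and ANX. Its control levels were 7.90, 8.40, 7.72 and 7.73, against 8.89, 9.10, 8.83 and 8.97 with LIF and at least 8.66 on each of the 4 ANX arrays. No LIF or ANX array overlapped the controls. The rise was 1.01 with LIF (SE 0.29, adjusted p = 0.0125; lost without control day 1 replicate 1, 0.0688) and 0.91 with ANX (SE 0.29, adjusted p = 0.0266; lost in 7 of 8 omissions, highest 0.128). With NGAL, Six4 ranged from 7.25 on day 7 to 8.99 on day 5. Over the 6 days it was 0.91 higher with LIF than with NGAL (SE 0.16, adjusted p = 0.000115) and 0.75 lower with NGAL than with ANX (-0.75, SE 0.16, adjusted p = 0.00117). Six5 was called lower against the same controls, by -0.29 with LIF and -0.33 with ANX. Against fresh tissue it was called lower already on uninduced day 2 (-0.43), a call that ended with the dap ratio as a covariate (adjusted p 0.183). It went from 8.70 and 8.75 in fresh tissue to between 7.82 and 8.47 on induced day 7 (-0.60, SE 0.12, adjusted p = 0.000492).

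Satb1 was higher with LIF than with either other inducer, and group means of Lhx2 and Hoxd1 passed the signal threshold with LIF only. Satb1, which encodes a chromatin organiser with a homeodomain, was 9.64 and 9.57 in fresh tissue and stood at 11.12 and 11.41 on LIF day 3, when NGAL arrays were at 9.39 and 9.98 and ANX arrays at 10.54 and 9.44. By day 7 NGAL arrays stood at 8.55 and 9.35. LIF exceeded NGAL by 1.09 (SE 0.14, adjusted p = 2.11e-06, 6 of 6 days), and ANX by 0.54 (SE 0.14, adjusted p = 0.0229; lost in 4 of 24 omissions, highest 0.0659). A further Satb1 probe set gave 1.22 and 0.80 for the same differences (SE 0.17 each). Lhx2, a LIM homeobox gene, was between 3.71 and 4.61 in fresh, uninduced, NGAL and ANX arrays. With LIF it was 6.44 and 7.21 on day 3, 6.44 and 4.85 on day 4, and 4.51 and 4.61 on day 7, so that only the LIF day 3 mean passed the threshold. Its mean difference from NGAL was 1.16 (SE 0.13), of which 0.17 was left after flooring, and the adjusted p with no filter was 3.57e-07. In the F-test of inducer by day 0 of 49 members were called, and 0.0351% of all genes (4 genes, 660 at an unadjusted p under 0.05). Hoxd1, the Hox gene at the anterior end of the HoxD cluster, read 4.45 to 4.94 in controls and 5.37 to 6.36 in LIF arrays of days 1 and 2. Only LIF group means passed the threshold. The difference was 1.21 (SE 0.31), of which 0.08 was left after flooring, with an adjusted p of 0.00719 with no filter, and in the filtered fit the call was lost without LIF day 2 replicate 1 (adjusted p 0.0562). Cux1, a cut homeobox gene, was lower with LIF (-1.04, SE 0.22, adjusted p = 0.00151) and ANX (-0.90, SE 0.22, adjusted p = 0.00548) than in controls, but its other probe set changed by -0.25 with each and was not called.

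**Figure D3:**
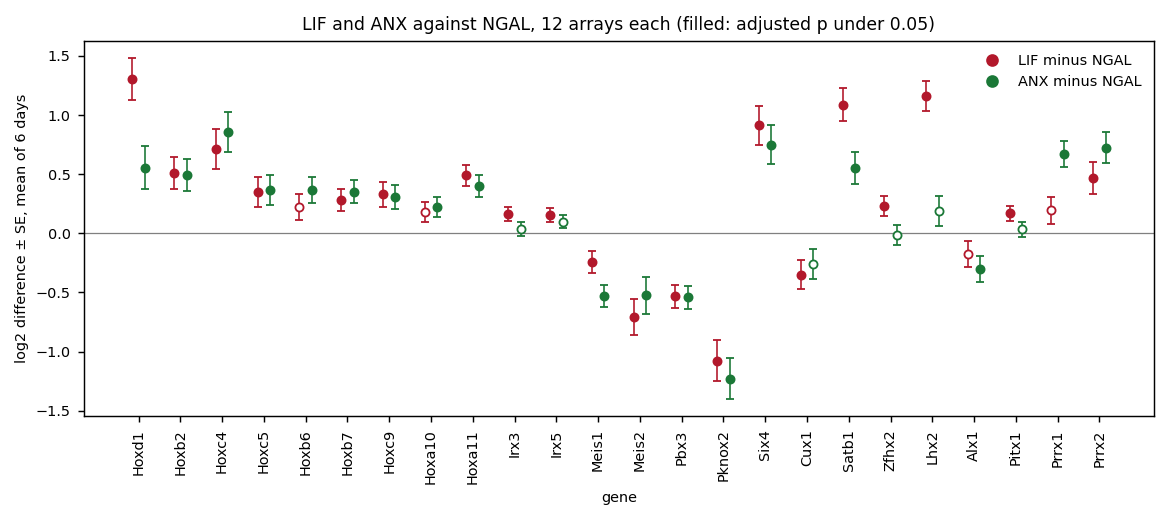
For each member called in LIF against NGAL or NGAL against ANX, points give the log2 difference from NGAL over 6 days with its SE, red for LIF and green for ANX (12 arrays each), filled where adjusted p was under 0.05. Hox genes, Six4 and Satb1 lie above 0 and Meis1, Meis2, Pbx3 and Pknox2 below it for both inducers, which share the NGAL arrays.

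In uninduced culture several Hox genes of low paralog number fell, while Hoxd9 rose. On day 2, 4 of 7 measured genes of paralog groups 1 to 4 fell against fresh tissue (2 arrays against 2) and 0 rose, with a median of -0.55. In groups 5 to 8, 1 of 6 fell with a median of -0.51, and in groups 9 to 13, 0 of 7 fell and 1 rose with a median of -0.10. Low paralog number did not mark off the large decreases. Hoxa5 changed by -1.22 and Hoxa9 by -1.16, both without a call, while Hoxb3 changed by -0.03. The median over all genes was -0.05. Hoxc4 went from 8.62 and 8.77 to 7.61 and 7.19 (-1.30, SE 0.41, adjusted p = 0.027; -0.57 for its other probe set), and Hoxb2 from 10.24 and 10.22 to 9.28 and 9.05 (-1.07, SE 0.33, adjusted p = 0.0225). Hoxd4 changed by -0.85 (SE 0.30), Hoxd3 by -0.55 (SE 0.19, floored -0.35) and Hoxc5, of group 5, by -0.85 (SE 0.31). Both uninduced means of Hoxd3 lay below the signal threshold. With every probe set as its own row, the other Hoxd3 probe set changed by -0.99 (limma adjusted p = 0.00468). That result was lost without fresh replicate 2 or control day 2 replicate 2. The same probe set changed by -1.21 from fresh to induced day 7 (adjusted p = 3.37e-05). Hoxd9 went from 9.34 and 9.52 to 10.03 and 9.87 (0.52, SE 0.17, adjusted p = 0.0316). All 6 calls were lost with any 1 of the 4 arrays omitted, with a highest adjusted p between 0.135 and 0.317. The control day 2 arrays had a log2 dap ratio of 1.97 and 2.04 and the fresh arrays 1.06 and 1.08, and with this ratio as a covariate none of the 6 calls remained (adjusted p from 0.0567 to 0.224). The 5S rRNA signal was log2 10.1 and 10.3 in the control day 2 arrays and 6.32 and 6.62 in the fresh arrays. In the same comparison 4 of 6 skeletal muscle markers rose, and 5 of 6 erythroid and 4 of 7 endothelial markers fell. The part of these differences in the Hox changes was not tested. Over all members 9 of 49 were called on day 2 (1 rose, 8 fell), beside 22.2% of all genes (9.47% rose, 12.7% fell), and 3 of 49 on day 1 (0 rose, 3 fell), beside 6.06% (3.8% and 2.26%). Uninduced day 2 against day 1, added after seeing the data, called 0 of 49 members (lowest adjusted p 0.322) and 0.00878% of all genes (1 gene, 1112 at an unadjusted p under 0.05).

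**Figure D4:**
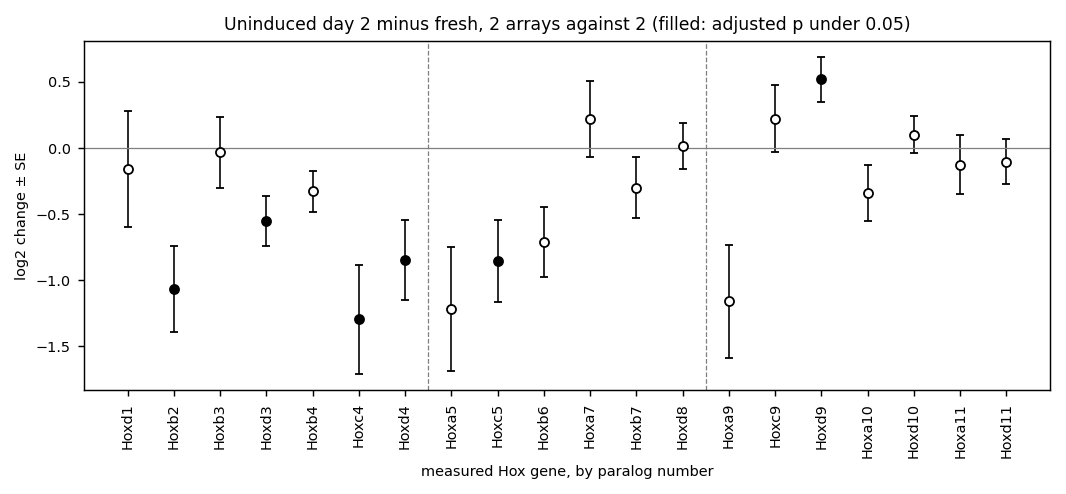
Measured Hox genes are ordered by paralog number along the horizontal axis, and the vertical axis is the log2 change from fresh tissue to uninduced day 2 with its SE (2 arrays against 2), filled where called. All 7 genes of groups 1 to 4 lie below 0, as do Hoxa5 at -1.22 and Hoxa9 at -1.16 (not called), while Hoxd9 lies above it at 0.52.

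Some Hox genes, Hoxb2 to Hoxb6 and Hoxc4 and Hoxc5 among them, were higher in LIF or ANX cultures than in controls. On day 1 NGAL means were also higher, though no member was called for NGAL against control. Hoxb2 means on day 1 were 10.39 with NGAL, 10.51 with LIF, 10.50 with ANX and 9.75 in controls. Those of Hoxc4 were 8.60, 8.47, 8.66 and 7.91. On day 2 the NGAL means of Hoxb2 and Hoxc4 were 9.61 and 7.65, beside 9.16 and 7.40 in controls. Hoxb2 rose by 0.87 with LIF (SE 0.23, adjusted p = 0.00835) and 0.88 with ANX (SE 0.23, adjusted p = 0.00956), from control levels of 9.43, 10.08, 9.28 and 9.05 to 10.51, 10.51, 10.34 and 9.98 with LIF and 10.47, 10.52, 10.20 and 10.16 with ANX. Control day 1 replicate 2 overlapped a LIF array, and both calls ended without control day 1 replicate 1 (highest adjusted p 0.0645 and 0.0759). With ANX, Hoxc4 rose by 1.01 (SE 0.29), Hoxc5 by 0.69 (SE 0.22), Hoxb6 by 0.67 (SE 0.19) and Hoxb4 by 0.34 (SE 0.11), and each of these was lost in 3 or 4 of 8 omissions, among them control day 1 replicate 1 and control day 2 replicate 2 (highest adjusted p 0.076, 0.104, 0.0875 and 0.173). With the dap ratio as a covariate the Hoxc5 and Hoxb4 calls ended (adjusted p 0.0516 each). Over the 6 days 9 of 20 measured Hox genes were lower with NGAL than with ANX and 0 were higher, beside 22.2% and 15.3% of all genes. Hoxc4 had the largest difference at -0.86 (SE 0.17, adjusted p = 0.00041) and was 0.71 higher with LIF than with NGAL (SE 0.17, adjusted p = 0.00156). Its other probe set gave smaller differences, -0.26 (SE 0.08) and 0.23 (SE 0.08). The lowest Hoxc4 levels were 6.47 on NGAL day 7 and 6.96 on NGAL day 3, both replicate 1.

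The Hox genes of groups 10 and 11, which act in kidney formation, were not called against fresh tissue on day 7. Hoxa10 was 11.12 and 11.20 in fresh tissue and 10.67 to 11.76 on induced day 7 (-0.04, SE 0.17, adjusted p = 0.896). Hoxa11 read 10.00 and 10.19 in fresh tissue and 9.88 to 10.89 on day 7 (0.24, SE 0.18, adjusted p = 0.329), Hoxd10 changed by -0.20 (SE 0.12, adjusted p = 0.177) and Hoxd11 by -0.02 (SE 0.14, adjusted p = 0.934). With the dap ratio as a covariate Hoxa11 was called (0.43, adjusted p 0.0248). Between inducers Hoxa11 differed: it was 0.49 higher with LIF than with NGAL (SE 0.09, adjusted p = 0.000155, 6 of 6 days) and 0.40 lower with NGAL than with ANX (-0.40, SE 0.09, adjusted p = 0.00156).

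Hoxd8 and Hoxd9, neighbours in the HoxD cluster, differed in opposite directions between day 1 and day 7 of induction. Hoxd8 went from 8.90 and 8.66 on LIF day 1 to 9.06 and 9.78 on day 7, from 8.82 and 8.87 to 9.25 and 9.55 with NGAL, and from 9.02 and 8.93 to 9.61 and 9.62 with ANX. Hoxd9 went from 9.88 and 9.48 to 8.83 and 9.47 with LIF, from 9.70 and 9.83 to 9.14 and 9.24 with NGAL, and from 10.04 and 9.81 to 9.29 and 9.18 with ANX. The groups did not overlap in any of the 6 cases. The 2 genes did not move together in time. Hoxd8 means on days 1, 5 and 7 were 8.78, 9.17 and 9.42 with LIF and 8.85, 8.98 and 9.40 with NGAL. With ANX they were 8.97, 8.90 and 9.61, and days 2 to 5 all lay below day 1. Hoxd9 had already fallen by day 5, to 9.21 with LIF, 9.29 with NGAL and 9.23 with ANX. Hoxd8 rose by 0.64, 0.56 and 0.64 (SE 0.17 each; adjusted p = 0.0184, 0.0312 and 0.0148) and Hoxd9 fell by 0.53, 0.57 and 0.69 (SE 0.17 each; adjusted p = 0.0464, 0.0252 and 0.00863). These are small changes on 2 arrays against 2: each of the 6 calls ended in at least 2 of 4 omissions (highest adjusted p from 0.1 to 0.507), including for Hoxd8 every array of the NGAL and ANX comparisons. With the dap ratio as a covariate the LIF call for Hoxd9 ended (adjusted p 0.0529). Against fresh tissue Hoxd8 rose by 0.58 (SE 0.14, adjusted p = 0.00257; without fresh replicate 1, 0.0583), while the Hoxd9 change was -0.24 (SE 0.14, adjusted p = 0.193). The 250 bases before each start site are printed to show how unlike these neighbouring promoters are, at chr3:80014973-80015222 (plus strand) and chr3:80007756-80008005 (plus strand) of GRCr8.
Hoxd8: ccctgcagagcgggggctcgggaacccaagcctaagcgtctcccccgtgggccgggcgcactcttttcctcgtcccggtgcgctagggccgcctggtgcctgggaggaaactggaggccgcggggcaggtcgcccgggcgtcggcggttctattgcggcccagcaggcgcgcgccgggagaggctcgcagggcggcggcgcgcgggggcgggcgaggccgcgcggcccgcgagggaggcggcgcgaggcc
Hoxd9: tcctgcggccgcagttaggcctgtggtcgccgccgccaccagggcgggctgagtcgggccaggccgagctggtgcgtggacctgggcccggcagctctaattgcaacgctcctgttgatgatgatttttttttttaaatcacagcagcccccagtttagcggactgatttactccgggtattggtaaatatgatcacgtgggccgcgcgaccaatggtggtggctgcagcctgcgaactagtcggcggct
The Hoxd8 window is 78.8% G and C, and the Hoxd9 window holds less. Neither holds TAATTA (a homeodomain core, in 4.86% of all windows), TGACAG, TGATNNAT (a joint Pbx and Hox motif, in 7.96%) or TTCNNNGAA on either strand, so no letters are in capitals.

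**Figure D5:**
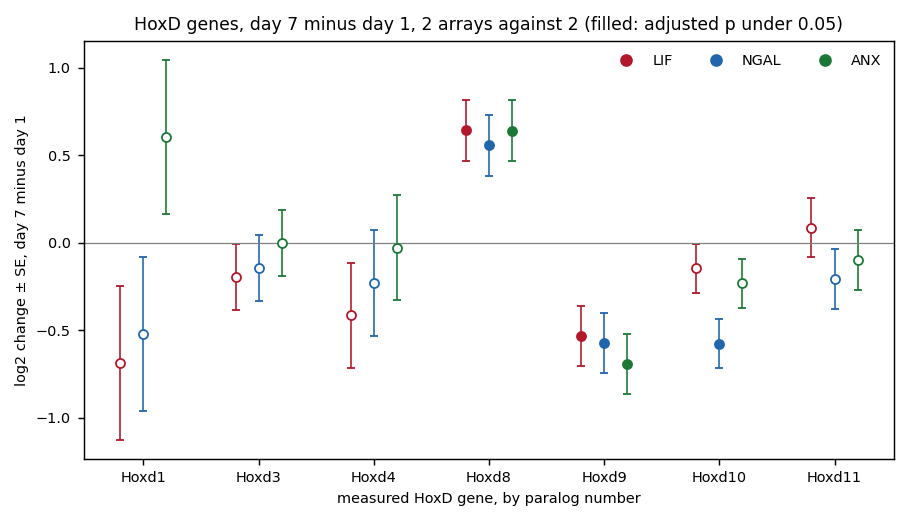
Measured HoxD genes are ordered by paralog number, and the vertical axis is the log2 change from day 1 to day 7 with its SE for LIF (red), NGAL (blue) and ANX (green), 2 arrays against 2, filled where called. Hoxd8 lies above 0 and Hoxd9 below it with each inducer, and Hoxd10 is called only with NGAL at -0.58.

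Msx1 and Prrx2 were lower in uninduced culture than in fresh tissue. Msx1, a gene of BMP-responsive mesenchyme, was 6.26 and 6.02 in fresh tissue and between 4.79 and 5.21 on all 40 cultured arrays. It was measured through fresh tissue only, since all cultured group means were below the threshold. It fell by 0.99 on uninduced day 1 (SE 0.12), 1.19 on day 2 (SE 0.12) and 1.18 on induced day 7 (SE 0.10), with adjusted p = 1.02e-06, 2.58e-08 and 1.57e-10 with no filter. The floored value, the part above the threshold, was -0.36 in each. Prrx2, a paired-type gene of embryonic mesenchyme, went from 8.19 and 8.29 to 7.22 and 6.96 on uninduced day 1 (-1.15, SE 0.33, adjusted p = 0.0376; lost in each of 4 omissions, highest 0.209) and to 6.67 and 6.81 on day 2 (-1.50, SE 0.33, adjusted p = 0.0025; kept in each). With ANX it stood at 8.14 and 8.01 on day 7, near the fresh arrays, against 7.01 and 7.49 with LIF and 7.13 and 7.05 with NGAL, and it was lower with NGAL than with ANX over the 6 days (-0.72, SE 0.13, adjusted p = 0.000227). Its relative Prrx1 peaked with ANX at 7.87 and 8.11 on day 5 and was also lower with NGAL than with ANX (-0.67, SE 0.11, adjusted p = 8.94e-05) and with LIF than with ANX (-0.48, SE 0.11, adjusted p = 0.0151); its other probe set gave -0.53 and -0.48. Alx1 changed by -1.06 between fresh tissue and induced day 7 (SE 0.22, floored -0.37, adjusted p = 0.0005 in the filtered fit). Only the fresh and uninduced day 2 means of Alx1 passed the threshold. Emx1, a relative of Emx2, fell by 0.56 on uninduced day 1 (SE 0.14, adjusted p = 0.0173; kept without control day 1 replicate 2 only, highest 0.212).

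Genes that work with these factors were counted in lists. Of 12 measured genes of the Eya, Six-family and Pax network, 2 rose and 0 fell with LIF against control, beside 11.4% and 12.6% of all genes. With ANX against control 2 also rose and 0 fell, beside 11.2% and 9.12% of all genes. List medians were 0.51 with LIF and 0.40 with ANX. The 2 that rose with LIF were Eya2, a cofactor of Six-family proteins (2.38, SE 0.41, adjusted p = 0.000247), and Pax8, a gene of early nephrons (1.72, SE 0.31, adjusted p = 0.000417). Over the 6 days 9 of the 12 were lower with NGAL than with ANX and 0 were higher, beside 22.2% and 15.3% of all genes. On induced day 7 against fresh, to which the next counts refer, 15.9% of all genes rose and 18.6% fell. Of 21 measured homeobox genes outside the families above, 1 rose and 3 fell on induced day 7 against fresh. Pou3f3, a POU gene of the distal nephron, rose by 4.51 (SE 0.67, adjusted p = 1.49e-05), and from day 1 to day 7 by 3.98 with LIF, 4.29 with NGAL and 5.20 with ANX (SE 0.82 each). Of 20 measured Polycomb and trithorax genes, which keep Hox genes silent or active, 2 rose and 9 fell on induced day 7 against fresh, among them Ezh2, the H3K27 methyltransferase (-1.33, SE 0.16, adjusted p = 1.1e-06), and Cbx2 (-0.98, SE 0.13, adjusted p = 2.47e-06). Of 14 measured retinoic acid genes, a pathway that sets Hox expression, 2 rose and 9 fell. Rarb, a retinoic acid receptor, changed by -3.89 (SE 0.29, adjusted p = 3.94e-10) and Dhrs3 by -3.39 (SE 0.24, adjusted p = 1.37e-10). The medians of the 4 lists in this comparison were -0.10, -0.16, -0.26 and -0.69, against -0.04 over all genes.

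Marker lists of the tissue moved in the same comparisons. Early nephron epithelium markers, of which 6 of 8 were measured and which include Lhx1 itself, rose in 4 of 6 cases from day 1 to day 7 with NGAL and with ANX and in 2 of 6 with LIF, beside 6.92%, 6.4% and 4.39% of all genes. Emx2, Lhx1 and the further Irx3 probe set were also higher on day 7 than on day 1, while the other Irx3 probe sets changed little. Their association with this list was not tested. The summed intensity of the early nephron markers was 1305 to 1374 in fresh tissue and 4546 to 4626 on ANX day 7. Ureteric bud markers rose in 4 of 7 cases on induced day 7 against fresh, beside 15.9% of all genes, with sums of 297 to 344 in fresh tissue and 534 to 1525 on day 7. Skeletal muscle markers were higher with NGAL than with ANX in 6 of 6 cases (sum 7789 to 14559 on NGAL day 4, 2590 to 2648 on ANX day 4), and nephron progenitor markers were lower in 5 of 7, where 15.3% of all genes were higher and 22.2% lower. By induced day 7, 5 of 6 erythroid and 7 of 7 endothelial markers had fallen against fresh tissue, beside 18.6% of all genes. Six2, Cited1, Osr1 and Foxd1, defining markers of progenitors and stroma, are not analysed here. The part of cell make-up in the homeobox changes was not tested.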

How the data were processed

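Per the labels and the submitters' processing notes, the deposited values are linear-scale array intensity values that the authors obtained by robust multichip analysis of biotinylated cRNA on Affymetrix rat genome arrays. Of 31099 probe sets, 20832 have 1 gene symbol, 436 several and 9831 none in the platform table. Log2 was taken, and the probe set with the highest mean over arrays stood for its gene. Genes whose highest group mean passed the 40th percentile (log2 5.79) were tested, 11388 in all. Emx2, Hoxd1, Lhx2 and Msx1, which passed only where they are high, carry p-values from the fit with no filter. Alx1, Hoxd3 and Lhx1, which also passed only where they are high, carry those of the filtered fit. Group means over 42 arrays were fitted with limma 3.58.1 (R 4.3.3, lmFit and eBayes with a variance trend, 21 residual degrees of freedom), with Benjamini-Hochberg adjustment per comparison. The scripts were tested on simulated data. Members, lists and comparisons were chosen with earlier results of these data known. Named genes are, per comparison, up to 8 called members with the largest rise and up to 8 with the largest fall (groups not overlapping, or the same sign on every day), fixed kidney genes of the families such as Hoxa10, Hoxa11, Six4, Emx2, Lhx1 and Irx1 to Irx3, and up to 4 called genes per partner list; others were chosen after their values were seen. Alternatives were the filter, the probe set choice, quantile normalization, no variance trend, the arrays and days fitted, a replicate block, the 3'/5' ratio as a covariate and leaving out each array. Fits of every probe set as its own row, of day 7 changes between inducers and of uninduced day 2 against day 1 were added after seeing the data. Promoter windows are RefSeq's. The precision is limited by 2 arrays a group, and the sources used here do not say whether replicates share a litter or an array batch.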

Additional observations from a re-analysis of the deposited data

How the results depend on the processing

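Counts below are of members called. With no filter on low signal they were 5 on uninduced day 1 against fresh (3 in the reported fit) and 3 for LIF day 7 against day 1 (5). With a stricter filter they were 1 on uninduced day 1 and 2 for LIF against ANX (4). With the 3'/5' ratio as a covariate uninduced day 2 gave 2 (9). A fit on only the arrays compared gave 23 on uninduced day 2, 19 for LIF against control (12), 0, 2 and 2 from day 1 to day 7 with LIF, NGAL (8) and ANX (7), 8 for induced day 7 against fresh (14) and 2 for LIF against ANX. Day 1 alone gave 1 for LIF and 3 for ANX against control (13), and day 2 alone gave 4 and 3. Days 1 and 2 alone gave 2 for LIF against NGAL (20), 0 for LIF against ANX and 1 for NGAL against ANX (18), and days 3 to 7 gave 2 for LIF against ANX. The F-test of time course by inducer went from 0 to 1 with the mean of probe sets and to 1 with a replicate block. The block moved no other count by over 1.5 times. Replicate numbers were not treated as pairs in the reported fit. The replicate 1 minus replicate 2 difference over all tested genes was correlated between groups. It exceeded 0.1 in 88 of 210 group pairs (-0.65 to 0.74), which does not settle whether same-numbered arrays were paired. Leaving out 1 array at a time gave 1 to 3 on uninduced day 1, 2 to 2 on day 2, 5 to 13 for LIF, 0 to 0 for NGAL and 5 to 12 for ANX against control, 1 to 4 with LIF, 1 to 8 with NGAL and 2 to 5 with ANX from day 1 to day 7, 7 to 20 for induced day 7 against fresh, 15 to 20 for LIF against NGAL, 3 to 6 for LIF against ANX, 15 to 18 for NGAL against ANX and 0 to 1 for the F-test. On days 1 and 2 alone, 3 differences had the opposite sign: NGAL minus ANX was 0.053 for Hoxa10 and 0.12 for Satb1, and LIF minus NGAL was -0.063 for Zfhx2. The cause of these changes was not tested, beyond the smaller number of arrays or genes in each fit.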
